A study of Mus musculus with 10 samples.

Results

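Dendritic cells lacking CD14 were compared with wild-type dendritic cells after 48 and 60 h of LPS without thapsigargin, across the 7474 genes measured above background out of 12393 named genes on the array. The comparison used 4 of the 10 arrays of the series, chosen by their labels: CD14-deficient LPS cells at 48 h and at 60 h, against wild-type LPS cells at 48 h and at 60 h. The CD14-deficient cells came from Cd14-/- C57BL/6 mice and the wild-type cells from C57BL/6 mice, all 6 to 8 weeks old. Cells of all groups were grown from bone marrow for 7 to 10 days with medium from tumor cells that secrete GM-CSF, and were used once more than 90% carried CD11c. All 4 cultures received smooth LPS at 1 µg/ml. The other arrays were an unstimulated pair harvested 24 h after plating and, at the same 2 times, a pair with LPS plus 50 nM thapsigargin, an inhibitor of the pump that refills the calcium store of the cell. Each condition was hybridised once, and nothing in the labels says how many mice gave the cells, so a difference seen at both times is the only repeat that the design offers.

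CD14 is a membrane-anchored protein that binds LPS and hands it to the TLR4 and MD-2 receptor. TLR4 signals from the cell surface through the adaptors MyD88 and Tirap, which lead to NF-κB and inflammatory cytokines, and from endosomes through Tram and Trif, which lead to IRF3 and type I interferon. CD14 carries TLR4 into endosomes, and the interferon branch depends on that step. In dendritic cells CD14 also starts a calcium signal, apart from TLR4, that activates the transcription factor NFAT. The series set out to find apoptosis genes under NFAT control.

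Values are the authors' array signals scaled to 1 level per array. Signals under a floor of 13.4, the 25th percentile of all signals, were set to it. That floor is a chosen limit and not a measured background. Genes counted as measured passed a higher limit, 99.2 on at least 2 of the 10 arrays. A gene can clear it through the 2 arrays of 1 group alone, and its difference is then partly set by the limit. Differences are CD14-deficient minus wild type on the log2 scale, with the standard error from a linear model in limma fitted to all 10 arrays written after ± (2 arrays per genotype). Each condition had 1 array, so the p-values measure the spread between these arrays, assumed equal in all groups, and not that between cultures or mice. A gene is said to have fallen or risen when its adjusted p was under 0.05, which held for 195 genes that were lower in CD14-deficient cells (2.61%) and 192 that were higher (2.57%). These shares are the background for the calls in each gene list below. At an unadjusted p under 0.05 the counts were 861 and 1189. Counted without a model, 164 genes were at least 2-fold lower at both times (2.19%), 247 were at least 2-fold higher at both times (3.30%), and 108 were 2-fold lower at 1 time and 2-fold higher at the other. In bulk cultures, fewer cells of a type and less RNA per cell cannot be told apart.

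Some quality measures of 1 LPS array of each genotype stood apart. The CD14-deficient LPS array at 48 h had the smallest cRNA yield of the series (15 µg, against 19 to 53.1 µg) and 18S rRNA control signals between 114 and 385, while that of wild-type cells after 60 h of LPS had 19 µg, 18S signals between 217 and 685 and an actin 3′ to 5′ ratio of 1.62 (1.02 to 1.14 on the others). The RNA integrity number went another way, at 10.0 and 8.6 in CD14-deficient LPS cells at 48 and 60 h and 9.4 and 8.6 in wild-type LPS cells. The 18S signals were between 2781 and 7417 in wild-type LPS cells at 48 h and between 6642 and 10022 in CD14-deficient ones at 60 h. In CD14-deficient LPS cells 1297 genes differed 2-fold between 48 and 60 h, against 491 in wild-type LPS cells, and with thapsigargin 189 in CD14-deficient cells against 115 in wild-type ones. The spread between times was thus unequal among the groups that the model takes as equal, and with the 4 LPS arrays alone 2 genes were called lower and 0 higher. Leaving out the CD14-deficient array at 48 h or at 60 h gave 639 or 1420 genes lower and 689 or 1889 higher. Without the wild-type array at 48 h or at 60 h, Cd14 and Erdr1 alone passed, both lower. All 195 lower and all 192 higher genes kept their direction when any single array of the 4 was left out. Genes were called for differences large beside their spread, so a kept direction is partly fixed by that choice. Without 1 CD14-deficient array, the gap between the 2 times of that group left the estimate of spread. The larger counts without it are therefore not added support. The part of these array measures in the differences was not tested.

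The gene deleted in these mice was under the floor on both CD14-deficient arrays. Cd14 read 7.35 and 3.86 in CD14-deficient cells at 48 and 60 h, against 15600 and 16190 in wild-type cells. The wild-type level was at least 1186-fold higher (difference −10.21 ± 0.18, adjusted p = 1.98e-05). The other 8 measured genes of the LPS receptor complex and its adaptors did not pass. Tlr4, the signalling receptor, read 746 and 1054 in CD14-deficient cells at 48 and 60 h, against 933 and 1320 in wild-type cells, a difference of −0.32 ± 0.21 (adjusted p = 0.355). Ly96, which encodes MD-2, differed by −0.08 ± 0.22 (adjusted p = 0.835) and the adaptor gene Myd88 by 0.21 ± 0.20 (adjusted p = 0.531). Tirap, which brings MyD88 to the membrane, differed by −0.39 and the kinase gene Irak1 by 0.09. Traf6, the ubiquitin ligase of this branch, was higher by 1.02 with the brightest of its probe sets, but its 2 others that cleared the same limit were lower (−1.01 and −1.51), so no direction is given for it. Itgam and Itgb2, the 2 chains of the integrin CD11b/CD18, were lower at 48 h (−2.77 and −0.95) and higher at 60 h (2.21 and 0.88) in CD14-deficient cells.

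Genes of the type I interferon response were lower in CD14-deficient cells. Of 45 genes listed, 35 were measured above background. Of the 35, 20 fell, 0 rose and 15 did not pass, where 2.61% of all genes fell and 2.57% rose. In 30 of the 35, both CD14-deficient arrays were below both wild-type arrays, against 20.8% of all genes tested, and in 1, Mx1, both were above, against 27.5% of all genes. At both times 20 of the 35 were at least 2-fold lower, against 2.19% of all genes. The median difference was −1.69 (−1.53 at 48 h and −1.18 at 60 h), beside 0.08 over all genes tested. It lay between −1.70 and −1.36 when any single LPS array was left out, with 24 falls without the CD14-deficient array at 48 h, 29 falls and 1 rise without that at 60 h, and 0 without either wild-type array. With no filter on dim genes, or with the 4 LPS arrays alone, 0 of the 35 passed at the same median.

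Promoters of 4 members that fell are shown because they hold the interferon-stimulated response element, the DNA letters that the interferon-activated factor ISGF3 and the IRF factors bind. The search was for GAAANNGAAA on either strand (N is any base) from 250 bases before to 50 bases after the gene start in RefSeq (GRCm38.p6), and matches are in capitals.
Ifit3, chr19:34583279-34583578, plus strand: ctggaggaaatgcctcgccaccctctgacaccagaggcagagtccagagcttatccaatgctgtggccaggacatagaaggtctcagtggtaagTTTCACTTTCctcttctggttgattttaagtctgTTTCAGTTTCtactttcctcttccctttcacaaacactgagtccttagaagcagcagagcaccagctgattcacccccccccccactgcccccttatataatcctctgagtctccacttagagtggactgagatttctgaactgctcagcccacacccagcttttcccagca
Rsad2, chr12:26456403-26456702, minus strand: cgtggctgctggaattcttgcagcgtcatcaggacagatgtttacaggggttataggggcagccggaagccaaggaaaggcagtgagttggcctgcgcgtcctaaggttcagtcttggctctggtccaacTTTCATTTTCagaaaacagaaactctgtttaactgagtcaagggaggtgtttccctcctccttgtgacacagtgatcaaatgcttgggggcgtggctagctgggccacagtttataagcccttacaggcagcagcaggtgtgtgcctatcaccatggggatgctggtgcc
Ifit1, chr19:34640639-34640938, plus strand: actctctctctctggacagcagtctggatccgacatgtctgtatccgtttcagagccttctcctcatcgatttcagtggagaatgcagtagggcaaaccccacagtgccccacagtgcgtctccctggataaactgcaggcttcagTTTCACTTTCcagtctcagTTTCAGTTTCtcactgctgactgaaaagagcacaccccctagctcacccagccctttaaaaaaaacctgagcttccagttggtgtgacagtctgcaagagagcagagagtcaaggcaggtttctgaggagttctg
Oas3, chr5:120777610-120777909, minus strand: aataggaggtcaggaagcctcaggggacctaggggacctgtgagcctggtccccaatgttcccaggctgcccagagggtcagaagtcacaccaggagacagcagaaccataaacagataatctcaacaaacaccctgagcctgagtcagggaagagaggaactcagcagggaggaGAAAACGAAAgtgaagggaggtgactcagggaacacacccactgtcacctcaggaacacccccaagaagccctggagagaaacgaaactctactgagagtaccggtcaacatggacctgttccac
The matches began 156 and 122 bases upstream of the start of Ifit3, 120 upstream of Rsad2, 104 and 85 upstream of Ifit1 and 75 upstream of Oas3. Of the 24 tested members with a promoter in the table, 12 held the element (50.0%), against 3.99% of 27025 genes with a promoter. Among members that fell it was in 8 of 15, and among members that did not pass in 4 of 9. It was in 20 of the 154 promoters of all genes called lower (13.0%) and in 6 of the 150 of genes called higher (4.0%). A match is a description of these letters and not evidence of a bound site.

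Ifit3, a member of the Ifit family that binds viral RNA or its partners, read 174 and 218 in CD14-deficient cells at 48 and 60 h, against 3491 and 1410 in wild-type cells, a difference of −3.51 ± 0.39 (adjusted p = 0.0173). Its neighbour Ifit1, which recognises viral RNA caps, read 469.8 and 676 in CD14-deficient cells at 48 and 60 h, against 5456 and 3572 in wild-type cells, 7.83-fold lower (−2.97 ± 0.30, adjusted p = 0.0165). Rsad2, the antiviral enzyme viperin, read 735 and 2176 in CD14-deficient cells at 48 and 60 h, against 12460 and 9159 in wild-type cells (−3.08 ± 0.49, adjusted p = 0.0314). In each of these genes the CD14-deficient arrays lay below both wild-type arrays, and the gap was wider at 48 h than at 60 h. Cmpk2, a mitochondrial nucleotide kinase that neighbours Rsad2, read 55.4 and 113 in CD14-deficient cells and 1777 and 689.5 in wild-type cells (−3.81 ± 0.54, adjusted p = 0.0278). Ifi204, a DNA-binding member of the interferon-inducible p200 family, read 94.0 and 169.8 in CD14-deficient cells and 1365 and 786 in wild-type cells (−3.04 ± 0.38, adjusted p = 0.0205). Both CD14-deficient LPS signals of Ifit3 were also below those of the unstimulated arrays, which read 295 in CD14-deficient cells and 351 in wild-type ones. For Ifit1 the unstimulated arrays read 658 in CD14-deficient cells and 724 in wild-type ones, within the range of the CD14-deficient LPS arrays or just above it.

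Irf7, the transcription factor that amplifies interferon production, read 1241 and 1209 in CD14-deficient cells at 48 and 60 h, against 7682 and 3897 in wild-type cells (−2.16 ± 0.25, adjusted p = 0.0173). The oligoadenylate synthetases make the messenger that activates RNase L, and 5 of their genes fell, with differences of −1.78 for Oas1a, −1.80 for Oas2, −2.23 for Oas3, −1.64 for Oasl1 and −1.89 for Oasl2. Usp18, a protease that removes the ubiquitin-like modifier Isg15 and dampens interferon signalling, read 1268 and 1701 in CD14-deficient cells and 6557 and 4179 in wild-type cells (−1.83 ± 0.26, adjusted p = 0.0282). Zbp1, a sensor of Z-form nucleic acid, differed by −1.69, and Cxcl10, a T-cell chemokine, by −1.34. Slfn1 and Slfn4, of the Schlafen family, differed by −1.73 and −2.08, and Ifitm3, a membrane restriction factor, by −0.88. All these genes passed, and in each both CD14-deficient arrays were below both wild-type arrays.

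The 15 members that did not pass had differences between −3.34 and 1.51. Mx1, a dynamin-like antiviral GTPase, read 3241 and 1309 in CD14-deficient cells at 48 and 60 h, against 693 and 749.9 in wild-type cells, and the 2 groups did not overlap, yet its difference of 1.51 ± 0.42 (adjusted p = 0.0873) did not pass. Its paralog Mx2 read 169 and 14.4 in CD14-deficient cells at 48 and 60 h, against 734 and 341 in wild-type cells, also without overlap, at −3.34 ± 0.91 (adjusted p = 0.0859). Isg20, an exonuclease, had differences of −4.61 at 48 h and −1.62 at 60 h and just missed the threshold (−3.12 ± 0.64, adjusted p = 0.0504). Irf9 and Stat2, subunits of ISGF3, differed by −0.29 ± 0.26 (adjusted p = 0.498) and −0.87 ± 0.24 (adjusted p = 0.0886), and Eif2ak2, the RNA-activated kinase PKR, by 0.04 ± 0.26 (adjusted p = 0.929).

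Among the interferon-inducible GTPases, which attack the vacuoles of intracellular pathogens, 4 of 9 fell and 0 rose, beside 2.61% and 2.57% of all genes. The median was −0.94, and in 8 of 9 both CD14-deficient arrays were below both wild-type arrays, beside 20.8% of all genes. Gbp6, a guanylate-binding protein, read 191 and 369 in CD14-deficient cells at 48 and 60 h, against 2518 and 1932 in wild-type cells (−3.05 ± 0.34, adjusted p = 0.0173). Irgm1, a regulatory GTPase of the IRG family, read 531 and 603 in CD14-deficient cells at 48 and 60 h, against 1807 and 1632 in wild-type cells (−1.60 ± 0.18, adjusted p = 0.0173). Igtp and Irgm2, of the same family, differed by −1.24 and −0.94, and Gbp7 by −0.89 ± 0.29 (adjusted p = 0.122). Of 13 interferons, interferon receptors and IRF factors, 0 fell and 3 rose. Tyk2, a kinase of the interferon receptor, read 997 and 719.8 in CD14-deficient cells at 48 and 60 h, against 309 and 277 in wild-type cells (1.53 ± 0.21, adjusted p = 0.0247), and Irf5, an inflammatory IRF factor, differed by 1.00 ± 0.17 (adjusted p = 0.037). Irf4, which drives a dendritic cell subset and plasma cells, read 2274 and 1733 in CD14-deficient cells at 48 and 60 h, against 268 and 527 in wild-type cells (2.40 ± 0.37, adjusted p = 0.0308); a dimmer probe set of Irf4 went the other way, with 62.2 and 65.9 in CD14-deficient cells and 253.9 and 90.0 in wild-type cells. Irf3 differed by 0.64 ± 0.23 (adjusted p = 0.143) and the receptor gene Ifnar1 by −0.31 ± 0.23 (adjusted p = 0.414).

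**Figure D1:**
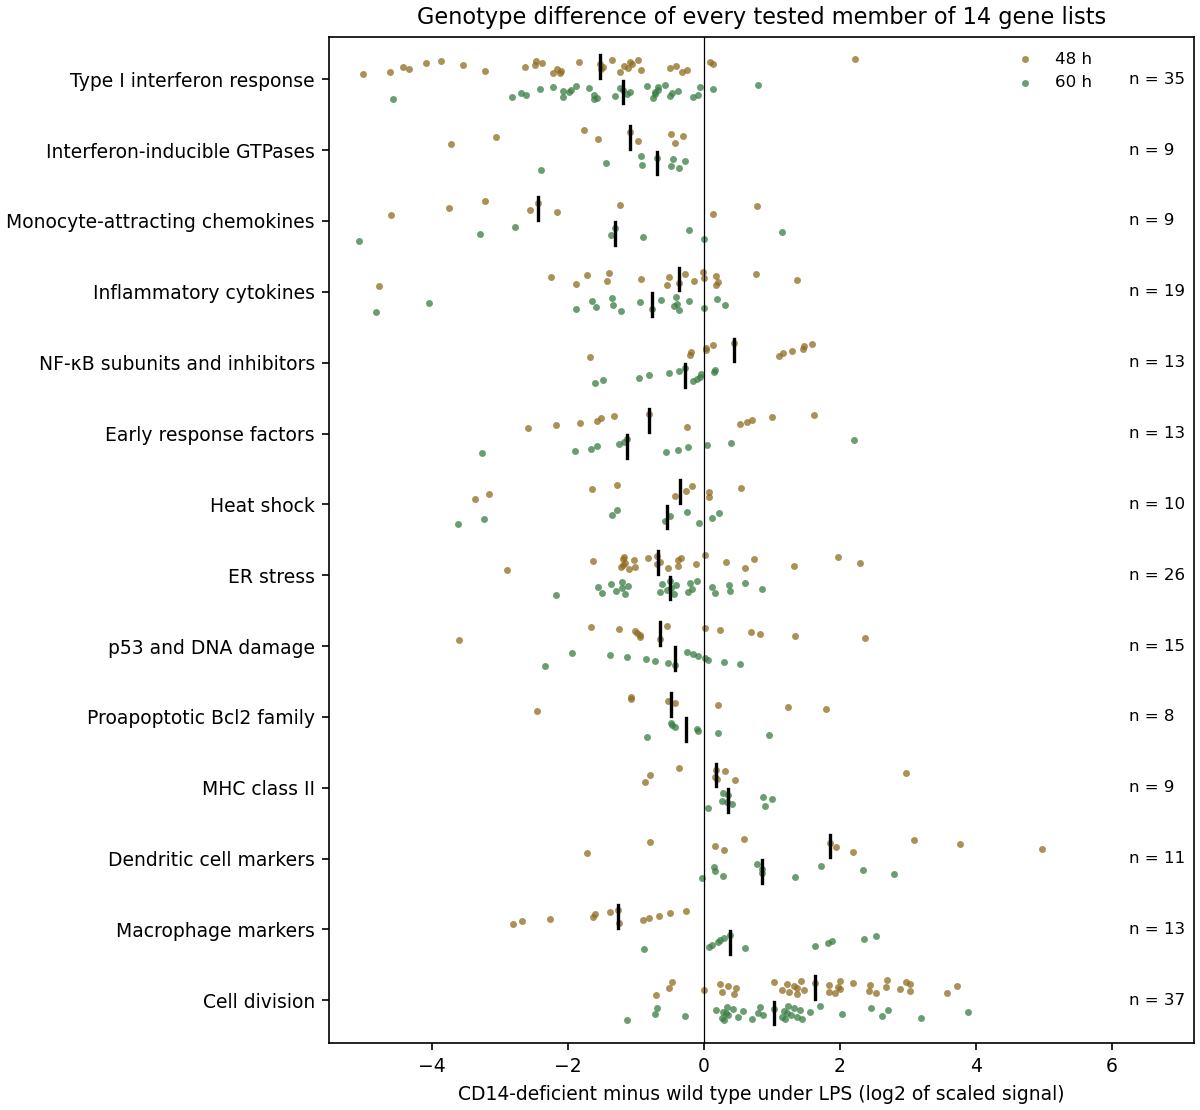
Each dot is the difference of 1 gene between CD14-deficient and wild-type LPS cells (log2 of scaled signal) at 48 h (brown) or 60 h (green), for every tested member of 14 lists, with n the number of members. Black bars are medians. Interferon-response genes lie mostly left of 0 and cell division genes mostly right of 0 at both times, while macrophage markers lie left at 48 h and mostly right at 60 h.

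The list of chemokines that draw monocytes held 9 measured genes, the receptors Ccr1 and Ccr2 among them. Of the 9, 4 fell and 0 rose, beside 2.61% and 2.57% of all genes, with a median of −1.76. At both times 5 were at least 2-fold lower, beside 2.19% of all genes. In 6 both CD14-deficient arrays were below both wild-type arrays and in 2, Ccl5 and Ccr2, above them, beside 20.8% and 27.5% of all genes. Ccl7 read 62.0 and 119 in CD14-deficient cells at 48 and 60 h, against 1501 and 3979 in wild-type cells, 28.5-fold lower (−4.83 ± 0.34, adjusted p = 0.00847). Ccl2, the main ligand of the monocyte receptor Ccr2, read 704 and 1133 in CD14-deficient cells at 48 and 60 h, against 9460 and 11050 in wild-type cells, 11.4-fold lower (−3.52 ± 0.17, adjusted p = 0.00168). Neither gene's groups overlapped, and their CD14-deficient LPS levels were also below those of both unstimulated arrays, 895 in CD14-deficient cells and 1919 in wild-type ones for Ccl7 and 6312 in CD14-deficient cells and 8854 in wild-type ones for Ccl2. Ccl8 read 49.4 and 41.2 in CD14-deficient cells and 458 and 283 in wild-type cells (adjusted p = 0.0169), and Ccl3, which also draws monocytes, differed by −1.76 ± 0.25 (adjusted p = 0.0279). Ccl12 was under the floor in both CD14-deficient arrays and read 78.8 and 33.2 in wild-type cells (−1.93 ± 0.40, adjusted p = 0.0529). Ccl5, which draws T cells as well, read 10450 and 10480 in CD14-deficient cells and 9522 and 10430 in wild-type cells (0.07 ± 0.14, adjusted p = 0.777). The receptor Ccr2 was above the floor on both CD14-deficient arrays and under it on both wild-type arrays (adjusted p = 0.115), and Ccr1 differed by −0.73 ± 0.27 (adjusted p = 0.155); neither passed.

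Of 14 other chemokines, 4 fell and 1 rose, beside 2.61% and 2.57% of all genes. Cxcl1, a neutrophil attractant, read 4165 and 2662 in CD14-deficient cells at 48 and 60 h, against 8108 and 10900 in wild-type cells (adjusted p = 0.0425), and Cxcl9, a T-cell attractant induced by interferons, read 54.7 and 60.7 in CD14-deficient cells and 384 and 145 in wild-type cells (−2.04 ± 0.41, adjusted p = 0.0495). The gene that rose was Ccl17, a ligand of Ccr4 made by dendritic cells, with 16180 and 14660 in CD14-deficient cells at 48 and 60 h, against 4127 and 6404 in wild-type cells (1.58 ± 0.23, adjusted p = 0.0283). The top 15 by size also held Ccl24, an eosinophil attractant, which was under the floor in CD14-deficient cells and read 148 and 138 in wild-type cells, at least 10.7-fold higher in wild type. On the unstimulated arrays and those with thapsigargin, Ccl24 was under the floor in both genotypes. It thus cleared the limit of 99.2 through the 2 wild-type LPS arrays alone, so its place in the top 15 is partly set by that limit.

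Inflammatory cytokines leaned lower in CD14-deficient cells, with few calls. Of 19 measured, 3 fell and 0 rose, beside 2.61% and 2.57% of all genes. The median was −0.62 (−0.37 at 48 h and −0.77 at 60 h). In 11 of the 19 both CD14-deficient arrays were below both wild-type arrays and in 1 above them, beside 20.8% and 27.5% of all genes. Csf3, the growth factor of neutrophils, read 67.1 and 130.4 in CD14-deficient cells at 48 and 60 h, against 1837 and 3656 in wild-type cells, 27.7-fold lower (−4.79 ± 0.23, adjusted p = 0.00168). Il10, an anti-inflammatory cytokine, read 40.3 and 26.4 in CD14-deficient cells and 133 and 435 in wild-type cells (−2.88 ± 0.58, adjusted p = 0.0495), and Il1a, an alarm cytokine, read 3810 and 5755 in CD14-deficient cells and 10180 and 11020 in wild-type cells (−1.18 ± 0.19, adjusted p = 0.0313). In all 3 genes each CD14-deficient array was below both wild-type arrays. Tnf read 254 and 678 in CD14-deficient cells and 937 and 1721 in wild-type cells, without overlap, and did not pass (−1.61 ± 0.38, adjusted p = 0.0683); Csf2, which encodes GM-CSF, read 31.5 and 48.4 in CD14-deficient cells and 59.8 and 177 in wild-type cells (−1.40 ± 0.37, adjusted p = 0.0828). The NF-κB subunits and inhibitors gave no call in 13 genes, with a median of 0.05 and opposite medians at the 2 times (0.44 at 48 h and −0.28 at 60 h). Among them, Nfkbiz, an atypical IκB protein, differed by −0.91 ± 0.37 (adjusted p = 0.182), Nfkbie, an inhibitor of NF-κB, by 0.87 ± 0.36 (adjusted p = 0.182) and Tnfaip3, the feedback enzyme A20, by −0.89 ± 0.39 (adjusted p = 0.203). Of 11 Socs and Stat feedback genes, Socs2 alone passed, higher at 1.03 ± 0.20 (adjusted p = 0.0457).

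A pair of enzymes that make prostaglandin E fell. Ptgs2, the inducible cyclooxygenase, read 2839 and 3714 in CD14-deficient cells at 48 and 60 h, against 11570 and 12240 in wild-type cells, 3.67-fold lower (−1.87 ± 0.15, adjusted p = 0.0113). Ptges, the synthase that completes the pathway, read 217 and 499.6 in CD14-deficient cells at 48 and 60 h, against 3582 and 3096 in wild-type cells, 10.1-fold lower (−3.34 ± 0.33, adjusted p = 0.0165). The groups of both genes were apart at both times. The other 10 of 12 prostaglandin and leukotriene genes did not pass, among them Ltc4s, of leukotriene synthesis, at 0.97 ± 0.28 (adjusted p = 0.0985). Of 11 acute phase and iron genes, 2 fell: Hamp, the iron hormone hepcidin, read 682 and 1187 in CD14-deficient cells at 48 and 60 h, against 5334 and 6592 in wild-type cells (−2.72 ± 0.31, adjusted p = 0.0173), and Orm2, an acute phase glycoprotein, read 37.1 and 96.2 in CD14-deficient cells and 462 and 489 in wild-type cells (−2.99 ± 0.36, adjusted p = 0.0188). Odc1, the first enzyme of polyamine synthesis, was the 1 of 10 amino acid and immune metabolic enzymes that fell (−1.48 ± 0.22, adjusted p = 0.0288), and Adm, the vasodilator peptide adrenomedullin, was the 1 of 18 glycolysis and hypoxia genes (−2.58 ± 0.36, adjusted p = 0.0274).

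Early response transcription factors contributed 3 falls and 0 rises among 13 genes, beside 2.61% and 2.57% of all genes. At both times 4 were 2-fold lower, beside 2.19% of all genes. Fosl2, an AP-1 subunit, read 81.6 and 75.6 in CD14-deficient cells at 48 and 60 h, against 488 and 281 in wild-type cells (−2.24 ± 0.26, adjusted p = 0.0184), and Fos read 1147 and 1454 in CD14-deficient cells and 3276 and 3273 in wild-type cells (−1.34 ± 0.15, adjusted p = 0.0173). Nr4a1, a nuclear receptor induced by calcium signals, read 61.5 and 29.8 in CD14-deficient cells at 48 and 60 h, against 182 and 286 in wild-type cells (−2.41 ± 0.45, adjusted p = 0.0436). Egr2, which NFAT is known to induce in lymphocytes, had a difference of 1.42 ± 0.50 (adjusted p = 0.138), and did not pass. The list of calcium, calcineurin and NFAT machinery held 0 falls and 3 rises in 21 genes, with a median of 0.48. Camk1d, a calcium-dependent kinase, read 123 and 125 in CD14-deficient cells at 48 and 60 h, against 30.2 and 43.0 in wild-type cells (1.78 ± 0.27, adjusted p = 0.0293), and Fgr, a Src-family kinase, read 162 and 213 in CD14-deficient cells and 71.9 and 68.6 in wild-type cells (1.40 ± 0.28, adjusted p = 0.0495). Plcg2, the phospholipase upstream of calcium release, read 869.5 and 935 in CD14-deficient cells and 525 and 554 in wild-type cells and did not pass (0.74 ± 0.16, adjusted p = 0.0555).

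Of 10 heat shock genes, which encode chaperones and their cofactors, 4 fell, 0 rose and 6 did not pass. Of all genes 2.61% fell and 2.57% rose. Hspa1b and Hspa1a, near-identical copies of the inducible Hsp70 chaperone whose signals may not be separate, read 164 and 321 in CD14-deficient cells at 48 and 60 h, against 1683 and 3933 in wild-type cells for Hspa1b and 91.3 and 251 in CD14-deficient cells and 816 and 2363 in wild-type cells for Hspa1a. The differences were −3.49 ± 0.23 (adjusted p = 0.0075) and −3.20 ± 0.32 (adjusted p = 0.0165), and each gene's CD14-deficient arrays were below both wild-type arrays. The cofactors Hsph1 and Dnajb1 differed by −1.45 ± 0.17 (adjusted p = 0.0188) and −1.31 ± 0.16 (adjusted p = 0.0205). A dimmer probe set of Dnajb1 that also cleared the limit for testing differed by −0.08, so its fall rests on the brightest probe set. With the mean of probe sets, 3 of the 10 genes fell. The cytosolic chaperone Hsp90aa1 did not pass (−0.50 ± 0.16, adjusted p = 0.119).

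Among the genes of this list that fell, Hsph1 is shown because its promoter held a match to the heat shock element, the letters that the heat shock factor binds, searched as GAANNTTCNNGAA on either strand. It begins 37 bases after the gene start and is in capitals.
Hsph1, chr5:149636287-149636586, minus strand: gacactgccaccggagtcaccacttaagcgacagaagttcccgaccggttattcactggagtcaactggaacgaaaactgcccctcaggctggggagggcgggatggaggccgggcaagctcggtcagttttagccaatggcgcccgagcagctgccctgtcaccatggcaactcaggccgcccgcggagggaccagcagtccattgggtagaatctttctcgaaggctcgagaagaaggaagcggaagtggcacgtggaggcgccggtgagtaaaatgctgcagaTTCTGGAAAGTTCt
The element was in 3 of the 8 heat shock genes with a promoter (37.5%), against 0.662% of 27025 genes. Among the 4 that fell it was in 1. It was in 2 of the 154 promoters of all genes called lower (1.3%) and in 2 of the 150 of genes called higher (1.33%).

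The integrated stress response shuts down translation and induces Atf4 and Ddit3. Of 26 genes of endoplasmic reticulum stress and this response, 5 fell and 0 rose, with a median of −0.53, and in 15 of 26 both CD14-deficient arrays were below both wild-type arrays, beside 20.8% of all genes. Atf4, its main transcription factor, read 3211 and 3093 in CD14-deficient cells at 48 and 60 h, against 7207 and 7537 in wild-type cells (−1.23 ± 0.13, adjusted p = 0.0169). Ddit3, the pro-death factor CHOP, read 479 and 1102 in CD14-deficient cells at 48 and 60 h, against 3545 and 3223 in wild-type cells (−2.22 ± 0.37, adjusted p = 0.0348). Hsp90b1 and Manf, a chaperone and a secreted protein of the reticulum, differed by −0.99 and −0.95, while Trib3, a target of Ddit3, did not pass (−1.16 ± 0.32, adjusted p = 0.0886).

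Apoptosis genes, which the series was made to find, were covered by 5 lists. Of 15 p53 and DNA damage genes, 6 fell and 0 rose, beside 2.61% and 2.57% of all genes, and the median was −0.55. Gadd45g, a growth arrest gene of the stress kinases, read 256 and 507 in CD14-deficient cells at 48 and 60 h, against 3115 and 2547 in wild-type cells, 7.81-fold lower (−2.97 ± 0.31, adjusted p = 0.0165). Gadd45a read 492 and 561 in CD14-deficient cells and 988 and 1455 in wild-type cells (−1.19 ± 0.20, adjusted p = 0.0376) and Gadd45b read 4370 and 3806 in CD14-deficient cells and 8619 and 6877 in wild-type cells (−0.92 ± 0.13, adjusted p = 0.0283). Perp, a p53 target in the membrane, differed by −1.80 ± 0.22 (adjusted p = 0.0205), and Phlda3, an inhibitor of Akt signalling, by −0.82 ± 0.16 (adjusted p = 0.0464). All these CD14-deficient arrays were below both wild-type arrays of the same gene.

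The proapoptotic Bcl2 family gave 0 calls in 8 genes by limma, and 2 had an unadjusted p below 0.05. Bid, which links death receptors to mitochondria, read 322 and 514 in CD14-deficient cells and 675 and 915 in wild-type cells (−0.95 ± 0.23, adjusted p = 0.0693), and Bak1, a pore-forming member, differed by −0.48 ± 0.18 (adjusted p = 0.156). Of 12 survival genes 1 fell: Pim3, a survival kinase, read 1157 and 1366 in CD14-deficient cells and 3501 and 3094 in wild-type cells (−1.39 ± 0.20, adjusted p = 0.0283). Cflar, the inhibitor of death receptor caspase activation, was lower without passing (−0.79 ± 0.20, adjusted p = 0.0792), and Birc2, a ubiquitin ligase that blocks cell death, was higher at 48 h alone (2.36, against 0.16 at 60 h). Of 8 death receptors and ligands Tnfrsf1b, a receptor of Tnf, fell (−1.21 ± 0.18, adjusted p = 0.0283). Of 15 caspases and execution genes, Casp4, the intracellular LPS sensor, read 1201 and 1410 in CD14-deficient cells at 48 and 60 h, against 3707 and 3041 in wild-type cells (−1.37 ± 0.21, adjusted p = 0.0293), and Htra2, a mitochondrial protease, rose (1.10 ± 0.22, adjusted p = 0.0469). Casp9 and Dffa, of the mitochondrial pathway and of DNA cutting, differed by 0.81 ± 0.26 (adjusted p = 0.117) and 0.70 ± 0.26 (adjusted p = 0.152).

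Other large falls lay outside these groups. Erdr1 read 187 and 168 in CD14-deficient cells at 48 and 60 h, against 6662 and 8191 in wild-type cells (−5.38 ± 0.24, adjusted p = 0.00168). Emp1, a membrane protein of growing cells, read 96.6 and 320 in CD14-deficient cells at 48 and 60 h, against 2697 and 2599 in wild-type cells (−3.91 ± 0.41, adjusted p = 0.0165), and Mmp10, a secreted metalloprotease, read 4.33 and 77.0 in CD14-deficient cells and 255 and 926 in wild-type cells (−3.92 ± 0.32, adjusted p = 0.0113). Ms4a4c, of the MS4A membrane protein family, read 232 and 285 in CD14-deficient cells at 48 and 60 h, against 5033 and 2077 in wild-type cells (−3.65 ± 0.36, adjusted p = 0.0165). Cysltr2, a receptor for cysteinyl leukotrienes, read 13.9 and 8.16 in CD14-deficient cells and 265 and 120.1 in wild-type cells (−3.71 ± 0.39, adjusted p = 0.0169), and Gprc5b, an orphan receptor, read 17.7 and 35.1 in CD14-deficient cells and 279.9 and 279 in wild-type cells (−3.49 ± 0.30, adjusted p = 0.014). In each of these genes all CD14-deficient values were below all wild-type values.

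**Figure D2:**
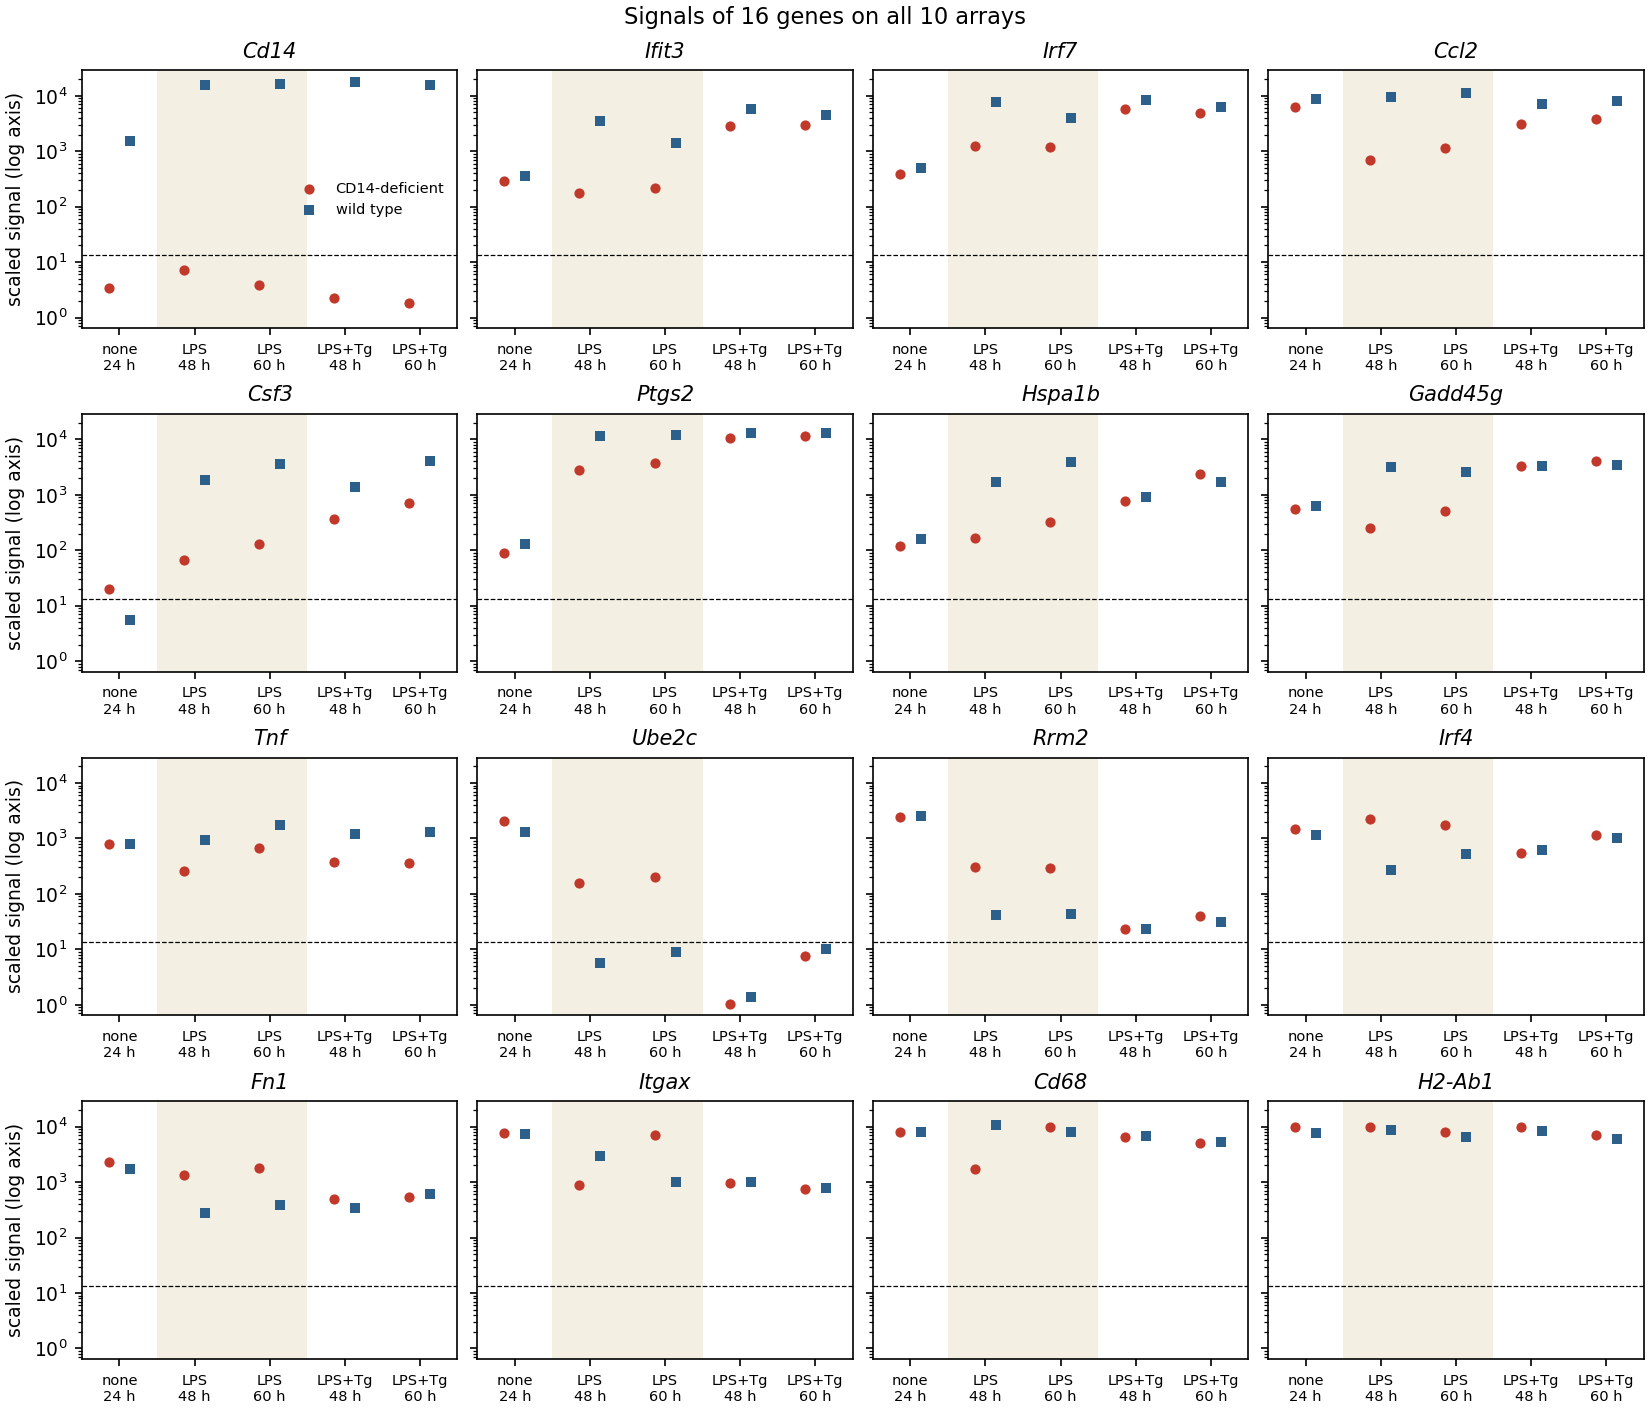
Scaled signals (log axis) of 16 genes on all 10 arrays, 1 point per array, with CD14-deficient cells (red circles) left of wild-type cells (blue squares) in each condition; the shaded band holds the 4 LPS arrays and the dashed line is the floor of 13.4. Under LPS the red points lie below the blue ones for Ifit3, Irf7, Ccl2, Csf3, Ptgs2, Hspa1b, Gadd45g and Tnf and above them for Ube2c, Rrm2, Irf4 and Fn1, while Itgax and Cd68 change places between 48 and 60 h.

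Genes of cell division were higher in CD14-deficient cells. Of 37 measured, 11 rose, 0 fell and 26 did not pass, where 2.57% of all genes rose and 2.61% fell. At both times 17 were at least 2-fold higher, beside 3.30% of all genes. In 30 of 37 both CD14-deficient arrays were above both wild-type arrays, beside 27.5% of all genes, and the median was 1.30 (1.63 at 48 h and 1.03 at 60 h), beside 0.08 over all genes tested. Left out one at a time, the CD14-deficient arrays at 48 and 60 h gave 16 and 26 rises with 1 fall each, and the wild-type arrays 0 calls, with medians between 1.03 and 1.71. Ube2c, the ubiquitin enzyme that works with the anaphase-promoting complex, read 159 and 198 in CD14-deficient cells at 48 and 60 h, against 5.66 and 8.87 in wild-type cells, at least 13.3-fold higher since both wild-type arrays were under the floor (3.73 ± 0.28, adjusted p = 0.00998). Ccna2, a cyclin of DNA synthesis and mitotic entry, read 197 and 244 in CD14-deficient cells at 48 and 60 h, against 24.1 and 26.6 in wild-type cells, 8.67-fold higher (3.12 ± 0.24, adjusted p = 0.0113). Rrm2, a subunit of ribonucleotide reductase, read 303 and 289.5 in CD14-deficient cells at 48 and 60 h, against 41.0 and 44.2 in wild-type cells (2.80 ± 0.29, adjusted p = 0.0165). The CD14-deficient values of each exceeded both wild-type values.

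Pclaf, which binds the sliding clamp PCNA, read 774 and 610.1 in CD14-deficient cells and 58.7 and 99.5 in wild-type cells (3.17 ± 0.34, adjusted p = 0.0173). Tk1, thymidine kinase of dividing cells, read 53.9 and 73.7 in CD14-deficient cells and 2.88 and 2.05 in wild-type cells, at least 4.70-fold higher. Birc5, Aurkb, Bub1, Nusap1, Top2a and Prc1, which act in chromosome segregation, differed by 1.82, 1.83, 2.13, 1.82, 1.24 and 1.29. Ube2c and Rrm2 were brighter on the unstimulated arrays than under LPS in both genotypes, where Ube2c read 2034 in CD14-deficient cells and 1312 in wild-type ones and Rrm2 read 2471 in CD14-deficient cells and 2591 in wild-type ones. The unstimulated arrays were harvested at 24 h. In that pair the median difference of the list was 0.42, beside 0.01 over all genes tested, from 1 array per genotype. The list did not move as one: Pcna itself differed by −0.14 ± 0.19 (adjusted p = 0.661), Cdt1, a licensing factor, by −0.10 and Cenpa, a centromere histone, by −0.82. Of the Mcm helicase genes, Mcm3 differed by 2.52 at 48 h and 0.82 at 60 h and Mcm6 by 1.97 and −0.28. With no filter on dim genes 2 of 38 passed, and with the 4 LPS arrays alone 0 of 37. Of the 37 genes, 11 were above the pooled median on all 4 LPS arrays, and of those 1 passed. On at least 1 of the 4 LPS arrays 24 genes of the list were above it, and with that filter 8 rose. The rest, Tk1 among them, were below it on all 4 LPS arrays and were tested because of other arrays. The part of low signal in this group's differences was not tested.

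Pole, the catalytic subunit of DNA polymerase epsilon, and Rad51ap1, a DNA repair factor, stood among the 15 largest rises outside the list, with 129 and 76.2 in CD14-deficient cells and 13.8 and 2.504 in wild-type cells for Pole and 163 and 91.3 in CD14-deficient cells and 15.8 and 21.7 in wild-type cells for Rad51ap1. The largest difference among the genes that rose was that of Septin4, a cytoskeletal GTPase, with 299 and 175 in CD14-deficient cells at 48 and 60 h, against 14.8 and 20.0 in wild-type cells (3.73 ± 0.42, adjusted p = 0.0173). C1s1, a complement protease, read 242 and 448 in CD14-deficient cells and 15.7 and 40.3 in wild-type cells (3.71 ± 0.46, adjusted p = 0.0205). Hepacam2, a cell adhesion protein, read 2613 and 399.9 in CD14-deficient cells and 154 and 98.7 in wild-type cells and Aif1, an actin-binding protein of myeloid cells, read 1112 and 471 in CD14-deficient cells and 75.3 and 118 in wild-type cells. Both genes were far higher at 48 h than at 60 h in CD14-deficient cells, and their groups did not overlap. Fgf13, a growth factor homolog that stays in the cell, read 108 and 106 in CD14-deficient cells and 12.8 and 10.9 in wild-type cells, at least 7.97-fold higher since both wild-type arrays were under the floor (adjusted p = 0.0165). Ptgis, prostacyclin synthase, and Mycl, a Myc-family factor of dendritic cells, were under the floor on both wild-type arrays and read 126 and 85.6 and 164 and 52.5 in CD14-deficient cells, at least 7.77-fold and 6.93-fold higher.

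The labelled cell type was checked against 11 dendritic cell and 13 macrophage markers. Itgax, which encodes CD11c, read 892 and 6941 in CD14-deficient cells at 48 and 60 h, against 2921 and 1002 in wild-type cells, so the marker used to accept the cultures was present on all 4 arrays and moved in opposite directions at the 2 times. Flt3, the receptor for the dendritic cell growth factor Flt3 ligand, read 1149 and 334 in CD14-deficient cells at 48 and 60 h, against 84.7 and 65.8 in wild-type cells (3.05 ± 0.52, adjusted p = 0.0372) and rose, as did Irf4. Zbtb46, Batf3 and Dpp4, markers of conventional dendritic cells, read 874 and 256 in CD14-deficient cells and 242 and 141 in wild-type cells for Zbtb46, 3488 and 1229 in CD14-deficient cells and 903 and 713 in wild-type cells for Batf3 and 764 and 143 in CD14-deficient cells and 24.4 and 56.7 in wild-type cells for Dpp4. None of the 3 passed (adjusted p = 0.144, 0.0578 and 0.0761). Ccr7, which guides mature dendritic cells to lymph nodes, read 16170 and 7190 in CD14-deficient cells and 3531 and 6408 in wild-type cells (1.18 ± 0.46, adjusted p = 0.169). In 8 of 11 markers both CD14-deficient arrays were above both wild-type arrays, beside 27.5% of all genes, and the summed signal was 53017 and 38129 in CD14-deficient cells and 28999 and 27732 in wild-type cells. Xcr1 stayed under the floor.

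Macrophage markers set the CD14-deficient array at 48 h apart. Their summed signal was 21809 there and 46573 at 60 h, against 50179 and 42144 in wild-type cells. All 13 were lower than wild type at 48 h (median −1.27) and 12 of 13 were higher at 60 h (median 0.38). Adgre1, an adhesion receptor used to define macrophages, was lower at both times and fell (−1.25 ± 0.22, adjusted p = 0.0399). Cd68, a lysosomal glycoprotein, read 1702 and 9656 in CD14-deficient cells at 48 and 60 h, against 10860 and 7887 in wild-type cells, and Csf1r, the receptor of the macrophage growth factor, read 4199 and 9905 in CD14-deficient cells and 10100 and 9420 in wild-type cells. The part of this shift in the differences at 48 h was not tested. At 60 h alone the medians were −1.18 for the interferon response, −1.31 for the monocyte chemokine list, −0.53 for heat shock, −0.49 for endoplasmic reticulum stress and 1.03 for cell division, each of the sign of the mean over both times. The median of the other chemokines was −0.47 at 48 h and 0.29 at 60 h, and that of the interferons, receptors and IRF factors 0.82 at 48 h and near 0 at 60 h.

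Markers of other cell types were read on the same arrays. Of 4 measured B cell and plasma cell markers 1 rose, Jchain, the joining chain of secreted antibodies (171 and 191 in CD14-deficient cells and 37.2 and 51.9 in wild-type cells, 2.04 ± 0.34, adjusted p = 0.0366). Ms4a1 and Sdc1, also tested, did not pass. In 3 of the 4 markers both CD14-deficient arrays were above both wild-type arrays and in 1 below them, beside 27.5% and 20.8% of all genes. Ighm, the IgM heavy chain, read 1789 and 1364 in CD14-deficient cells at 48 and 60 h, against 159.6 and 512 in wild-type cells and just missed the threshold (2.45 ± 0.49, adjusted p = 0.05001), and Igha, the IgA heavy chain, was among the 15 largest rises, with 384 and 349 in CD14-deficient cells at 48 and 60 h, against 40.7 and 66.8 in wild-type cells (2.81 ± 0.32, adjusted p = 0.0173). The immunoglobulin groups did not overlap. The B cell genes Cd79a, Cd79b and Pax5 did not reach the limit for testing. Cd79a read 56.0 and 52.3 in CD14-deficient cells and 20.2 and 32.4 in wild-type cells, and Cd79b read 109 and 55.4 in CD14-deficient cells and 21.6 and 43.4 in wild-type cells, above the floor on all 4 arrays, and Pax5 read between 4.21 and 15.1. Of 5 stromal markers, Fn1, fibronectin, rose (1340 and 1812 in CD14-deficient cells at 48 and 60 h, against 280.5 and 378 in wild-type cells, 2.26 ± 0.22, adjusted p = 0.0165) and Dcn, the matrix protein decorin, fell (89.2 and 416 in CD14-deficient cells and 921 and 2707 in wild-type cells, −3.04 ± 0.47, adjusted p = 0.0293). The collagen genes Col1a1, Col1a2 and Col3a1 did not reach the limit for testing either and read between 4.24 and 58.5 on the LPS arrays, with Col1a2 at 35.7 and 58.5 in CD14-deficient cells and 32.3 and 6.83 in wild-type cells. Of 6 neutrophil markers Camp, a granule peptide, rose (345 and 356 in CD14-deficient cells and 118 and 122 in wild-type cells, 1.55 ± 0.30, adjusted p = 0.0466). The median of the 6 was −0.33, with 4 lower than wild type at 48 h and 3 at 60 h. In 2 of the 6 both CD14-deficient arrays were below both wild-type arrays and in 1 above them, beside 20.8% and 27.5% of all genes. None of 9 T and NK cell or 5 erythroid genes on the array reached the limit for testing. The summed signals were 3324 and 5905 in CD14-deficient cells and 5366 and 5177 in wild-type cells for the B cell and plasma cell markers tested, 1925 and 2578 in CD14-deficient cells and 1544 and 3422 in wild-type cells for the stromal ones, 9678 and 17981 in CD14-deficient cells and 16272 and 20098 in wild-type cells for the neutrophil ones and 1792 and 497 in CD14-deficient cells and 519 and 752 in wild-type cells for the mast cell ones. The part of such cells in the differences was not tested.

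Antigen presentation genes gave few calls. Of 11 MHC class I genes 1 fell, Erap1, the peptide-trimming enzyme (432 and 327 in CD14-deficient cells and 1042 and 636 in wild-type cells, −1.12 ± 0.20, adjusted p = 0.0399), and of 9 MHC class II genes 0 passed by limma, and 3 had an unadjusted p below 0.05. Ciita, the master regulator of MHC class II, read 1460 and 454 in CD14-deficient cells and 185 and 249 in wild-type cells (1.92 ± 0.49, adjusted p = 0.0774), while H2-Ab1 read 9751 and 8156 in CD14-deficient cells and 8640 and 6422 in wild-type cells (0.26 ± 0.12, adjusted p = 0.228). Of 20 costimulation and maturation genes 1 rose, Pdcd1lg2, a checkpoint ligand (1404 and 1655 in CD14-deficient cells at 48 and 60 h, against 634 and 442 in wild-type cells, 1.53 ± 0.24, adjusted p = 0.0309), and Cd274, a related ligand, differed by −0.51 ± 0.13 (adjusted p = 0.0806). The median of these 20 went opposite ways, 0.93 at 48 h with 4 genes below 0 and −0.47 at 60 h with 13 below 0. Scd2 and Scd1, desaturases of fatty acids, were the 2 of 15 lipid synthesis genes that rose, with 2590 and 3069 in CD14-deficient cells at 48 and 60 h, against 974 and 728 in wild-type cells for Scd2 (1.74 ± 0.28, adjusted p = 0.0326) and 415 and 233 in CD14-deficient cells and 135 and 110.2 in wild-type cells for Scd1 (1.35 ± 0.22, adjusted p = 0.0348). Fasn, fatty acid synthase, read 389 and 276 in CD14-deficient cells and 122 and 152 in wild-type cells and just missed the threshold (1.27 ± 0.26, adjusted p = 0.05001).

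The remaining lists held few calls. Among 17 lysosomal enzymes, Npc1, of cholesterol export, fell (−1.25 ± 0.20, adjusted p = 0.0314) and Gusb, which also serves as a housekeeping gene, rose (1.15 ± 0.16, adjusted p = 0.0277). A dimmer probe set of Gusb that also cleared the limit for testing differed by 0.18, so its rise rests on the brightest probe set. With the mean of probe sets, 0 of the 17 lysosomal enzymes and 0 of 9 housekeeping genes rose. None passed of 12 Nrf2 targets and metallothioneins, 8 complement genes, 13 matrix metalloproteases and inhibitors, 18 oxidative phosphorylation genes, 12 ribosomal protein genes and 14 genes near Cd14 on its chromosome, with 21 of these 77 at an unadjusted p under 0.05. C1s1 and Mmp10, described above, are a complement protease and a metalloprotease that passed and are not on these lists. The ribosomal protein genes leaned one way, with both CD14-deficient arrays above both wild-type arrays in 10 of 12 and a median of 0.37, against 27.5% of all genes. Actb, beta-actin, differed by 0.26 ± 0.12 (adjusted p = 0.22) and Tbp, the TATA-binding protein, by −0.36 ± 0.23 (adjusted p = 0.355).

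Some differences were far apart at the 2 times. Of 7474 genes, 866 were at least 2-fold lower and 1340 higher in CD14-deficient cells at 48 h, and 389 lower and 568 higher at 60 h. Of the 108 with opposite directions, 86 were lower at 48 h and higher at 60 h. Mmp19, a metalloprotease, read 31.2 and 1356 in CD14-deficient cells at 48 and 60 h, against 203 and 70.7 in wild-type cells. Plau, the urokinase protease, read 18.8 and 758 in CD14-deficient cells and 409 and 184 in wild-type cells, and Trem2, a lipid receptor of macrophages, read 258 and 4174 in CD14-deficient cells and 2360 and 1332 in wild-type cells. In these genes CD14-deficient cells had both the lowest and the highest of the 4 values. Nos2, inducible nitric oxide synthase, read 2.77 and 138 in CD14-deficient cells at 48 and 60 h, against 291 and 75.5 in wild-type cells, and Gsta2, a glutathione transferase, read 7.03 and 129.8 in CD14-deficient cells and 228 and 43.1 in wild-type cells. In the other direction, Marveld1 read 2077 and 373 in CD14-deficient cells at 48 and 60 h, against 62.9 and 223 in wild-type cells, Insm1, a zinc-finger factor, read 499 and 72.8 in CD14-deficient cells and 33.6 and 73.9 in wild-type cells and Haao, an enzyme of tryptophan breakdown, read 924 and 278 in CD14-deficient cells and 4.94 and 52.9 in wild-type cells. None of these 8 genes passed, and the adjusted p ran from 0.0556 for Haao to 0.777 for Mmp19.

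**Figure D3:**
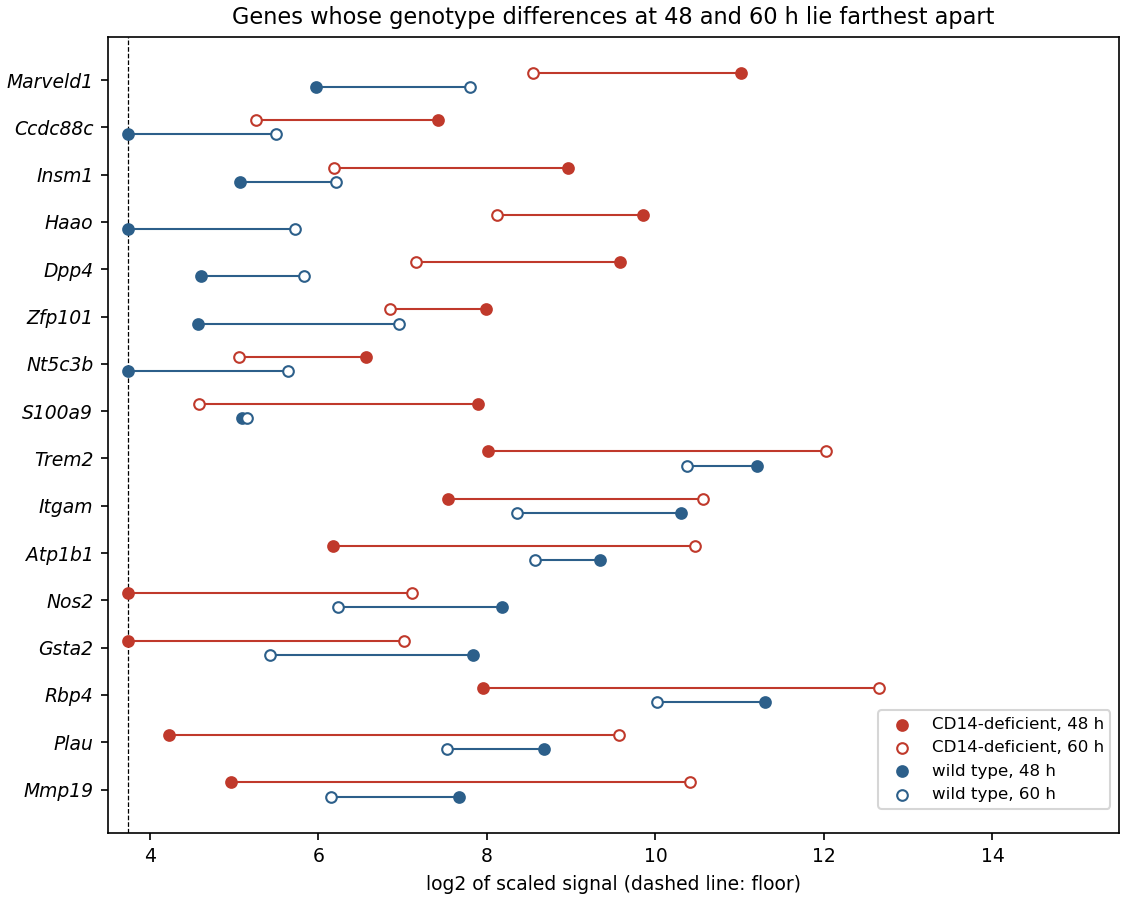
Scaled signals (log2) under LPS of the 16 genes whose genotype differences at 48 and 60 h lie farthest apart, CD14-deficient (red) above wild type (blue) in each row, with filled points for 48 h and open points for 60 h; the dashed line is the floor. The red lines are long: in the lower 8 genes the CD14-deficient signal is far lower at 48 h than at 60 h, and in the upper 8 far higher.

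The unstimulated pair gave the genotype difference without LPS. In the unstimulated pair, 41 genes were at least 2-fold lower in CD14-deficient cells (0.549%) and 58 higher (0.776%). Of the 195 genes called lower under LPS, 10 were 2-fold lower there, and of the 192 called higher, 9 were 2-fold higher. Besides Cd14, Erdr1 and Ccl7, 10 genes were apart 2-fold in 1 direction in all 5 matched pairs of arrays, Ghitm, Rhou, Rpgrip1, U90926 and Wdfy1 lower and BC023105, Cdk5rap1, Dhrs7, Gm6958 and Klrb1b higher in CD14-deficient cells. Ghitm, a mitochondrial membrane protein, read 1256 and 1323 in CD14-deficient cells at 48 and 60 h, against 6369 and 4989 in wild-type cells, and 1080 in CD14-deficient cells and 4271 in wild-type ones without stimulation. Wdfy1, an endosomal adaptor, read 169.8 and 245 in CD14-deficient cells and 1041 and 966 in wild-type cells under LPS and 141 in CD14-deficient cells and 882 in wild-type ones without. Rpgrip1, a protein of the photoreceptor cilium, read 98.5 and 70.7 in CD14-deficient cells and 404 and 401 in wild-type cells under LPS and 99.2 in CD14-deficient cells and 562 in wild-type ones without. For these genes the unstimulated difference was of the size of that under LPS. In contrast, Ifit3 differed by −0.25, Csf3 by 0.58 and Ptgs2 by −0.54 without stimulation, from 1 array per genotype.

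The genotypes were also compared with LPS and thapsigargin, on 4 other arrays. The LPS differences do not use these arrays, but their standard errors, floor and filter do, so the 2 comparisons share 1 estimate of the spread. With thapsigargin 41 genes were at least 2-fold lower in CD14-deficient cells at both times (0.549%) and 30 higher (0.401%), and 2 were called lower and 0 higher by limma (Cd14 and Erdr1), against 195 and 192 with LPS alone. Of the 195 genes called lower with LPS, 24 were 2-fold lower at both times with thapsigargin too, and of the 192 called higher, 7 were 2-fold higher. The medians of these genes with thapsigargin were −0.35 and 0.15, and the difference was nearer to 0 in 190 of the 195 and 191 of the 192. Because the genes were chosen for a large difference with LPS alone, a smaller value in other arrays is partly fixed by that choice. The difference between the 2 differences passed in 0 genes in limma (smallest adjusted p = 0.163), and 994 had an unadjusted p below 0.05.

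Values of single genes are given side by side. Hspa1b read 779.5 and 2360 in CD14-deficient cells with thapsigargin at 48 and 60 h, against 928 and 1678 in wild-type cells, a difference of 0.12 beside −3.49 with LPS alone. Gadd45g differed by 0.15 beside −2.97, Atf4 by −0.06 beside −1.23, Fosl2 by 0.50 beside −2.24 and Ube2c by 0.00 beside 3.73, with all 4 of its thapsigargin signals under the floor. The interferon list had a median of −0.53 with thapsigargin, and Ifit3 differed by −0.81 beside −3.51. Tnf differed by −1.76 beside −1.61, Csf3 by −2.19 beside −4.79 and Cysltr2 by −4.08 beside −3.71. The adjusted p of the difference between these values was between 0.163 and 0.924 for the 9 genes named here, so none was shown to depend on thapsigargin.

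**Figure D4:**
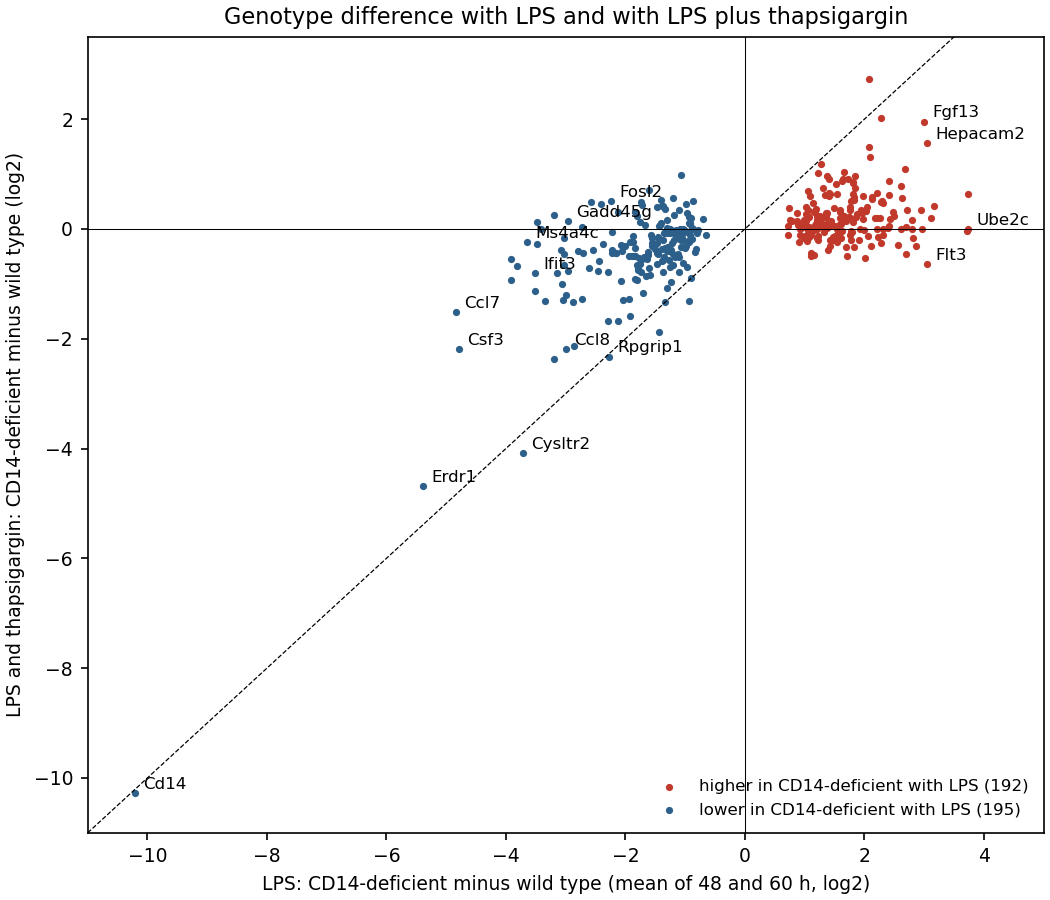
Each point is 1 of the 387 genes called between genotypes under LPS, with that difference (mean of 48 and 60 h, log2) on the horizontal axis and the difference with LPS and thapsigargin on the vertical axis; red genes were higher and blue genes lower in CD14-deficient LPS cells. The dashed line marks equal differences. Cd14, Erdr1, Cysltr2 and Rpgrip1 lie near it and most other genes lie nearer to 0 on the vertical axis.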

How the data were processed

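RNA from 10 cultures was hybridised to Affymetrix mouse arrays of 22690 probe sets, 1 array per condition. The authors deposited linear signal intensity values, made with MAS5 per the submitters' processing notes; the scaling target and the version of MAS5 were not given in the sources used. Trimmed means (2% off each end) of the deposited intensities lay between 444 and 553, so arrays were scaled to 509. Signals under 13.4, the 25th percentile, were set to it before log2. Of 20380 probe sets with 1 symbol (691 had several and 1619 none, controls included), the brightest per gene was used. Genes were tested when 2 or more of the 10 arrays exceeded 99.2, the median of all signals.

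The model (limma 3.58.1, R 4.3.3) had 6 genotype and treatment groups and a term for 60 against 48 h, with an intensity trend, 3 residual degrees of freedom and Benjamini-Hochberg adjustment over 7474 genes. The script was tested on simulated data. Alternatives changed scaling, floor, filter, probe sets, trend, arrays and the time block. The number of arrays limits the precision.

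Named genes were all measured LPS receptor genes, the 15 largest falls and rises among called genes 2-fold apart at both times, up to 5 members per list by the smaller of their 2 differences, 8 per direction with the most discordant times, 8 with the largest unstimulated difference and 8 with the smallest p with thapsigargin. The 4 printed interferon promoters (Rsad2 and Oas3 among them) and the 1 of Hsph1 followed a rule of their own. These genes were chosen after their values were seen: Aurkb, BC023105, Birc5, Bub1, Ccl5, Ccr1, Ccr2, Ccr7, Cd68, Cdk5rap1, Cdt1, Cenpa, Csf1r, Cxcl10, Dhrs7, Eif2ak2, Gm6958, Ifitm3, Irf7, Irf9, Isg20, Itgax, Klrb1b, Mcm3, Mcm6, Mx1, Nusap1, Oas1a, Oas2, Oasl1, Oasl2, Pcna, Prc1, Rhou, Slfn1, Slfn4, Stat2, Top2a, U90926, Usp18, Zbp1. The members and gene lists were chosen with earlier results of these data known.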

Additional observations from a re-analysis of the deposited data

How the results depend on the processing

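The counts of genes lower and higher in CD14-deficient LPS cells were 195 and 192. They were 68 and 37 with no filter on dim genes, 297 lower with every probe set kept apart, 122 higher with no scaling and 115 higher where all 4 LPS arrays had to be above the median. From the 4 LPS arrays alone they were 2 and 0. Leaving out 1 LPS array at a time gave 2 to 1420 genes lower and 0 to 1889 higher. Genes 2-fold lower at both times, 164, became 95 with the filter on all 4 LPS arrays and 291 with every probe set. Those 2-fold higher, 247, became 106 with a pseudocount of 50 and 104 with that filter. A 1.5-fold limit gave 408 lower and 615 higher, and a 3-fold limit 59 and 60. The test of the difference with thapsigargin against that with LPS, 0 genes, gave 5 with no filter, 2 with no intensity trend and 0 to 1899 leaving out 1 array. The fit pairs arrays by harvest time, and with no replicate block for time the counts were 197 and 203. Time marks the harvest, not a shared culture. Single genes that changed sign were Irak1 (−0.093), Traf6 (−0.50) and Eif2ak2 (−0.011) with the mean of probe sets, and Itgb2 (0.016) and Eif2ak2 (−0.033) with quantile normalization. Leaving out 1 array at a time changed the sign of Ccl5 (−0.069 to 0.21), Cd68 (−2.64 to 0.26), Cdt1 (−0.52 to 0.31), Csf1r (−1.28 to 0.087), Eif2ak2 (−0.21 to 0.29), Gsta2 (−3.31 to 0.81), Irak1 (−0.088 to 0.27), Irf9 (−0.69 to 0.11), Itgam (−2.28 to 1.72), Itgax (−1.33 to 2.41), Itgb2 (−0.82 to 0.75), Ly96 (−0.37 to 0.21), Mcm6 (−0.15 to 1.85), Mmp19 (−2.24 to 3.80), Nos2 (−4.00 to 0.43), Pcna (−0.42 to 0.13), Plau (−3.96 to 1.56) and Trem2 (−2.97 to 1.43), none of them called. Over 178 genes and 17 settings, 35 values changed sign, 516 lost the call and 91 gained it. Where an array is left out, its partner is assumed to vary like the other groups. The cause of these changes was not tested. The arrays carry no repeat of any condition, which limits every p-value, and signals near 13.4 have no order.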

Other observations

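Xist, the RNA of the inactive X chromosome, read 5407 to 8769 on the 10 arrays of both genotypes. The Y-linked genes Kdm5d, Uty and Eif2s3y reached at most 15.2, 12.9 and 7.48, near or under the floor of 13.4. The labels give no sex for these mice.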
